A study of Mus musculus with 4 samples.

Results

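Desert sites are places, far from any protein-coding gene, where TIMELESS libraries from mouse hippocampus had a peak in common. Overlapping peaks of 3 TIMELESS libraries on the 19 autosomes were merged where they met by at least 1 bp, and a region was called shared if at least 2 libraries had a peak in it and the input had none. A shared region was a desert site if its midpoint lay more than 500 kb from every protein-coding gene of the RefSeq table for mm10. Of the 97456 merged regions 10971 were shared, or 11.3%, and 1164 of these were desert sites, or 10.6% of the shared regions (exact 95% interval 10.0 to 11.2, counting error only). All 3 libraries met in 3.24% of merged regions. Members were chosen by the presence of the peaks themselves, so counts and densities of shared regions are given as a description.

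TIMELESS is known as a relative of an insect clock protein that acts in the circadian clock of mammals, and it also travels with the replication fork, where it couples the helicase to the polymerases and takes part in the checkpoint response. Gene deserts are long stretches without protein-coding genes. Many of them border genes of development and of the nervous system, and some hold enhancers that act on such genes over long distances.

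The study measured TIMELESS on chromatin by ChIP-seq, in which DNA fixed to a protein is pulled down with an antibody and sequenced. There were 3 libraries from hippocampus pulled down with an anti-TIMELESS antibody, called TIMELESS replicates 1, 2 and 3, and 1 input library of hippocampal chromatin without a pull-down. All libraries came from adult C57BL/6N mice, with no mutation and no treatment in the labels, which give neither sex nor exact age. Whether the 3 TIMELESS libraries came from separate animals is not in the labels either, and their spread may be technical. The peak lists hold no expression by which the labelled tissue could be checked.

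The peak list of the library labelled TIMELESS replicate 3 names its alignment file as a second input in its own header. The label was kept, and the leading counts, densities and ratios are also given without this library. Replicates 1, 2 and 3 kept 8425679, 13572739 and 30454118 tags after removal of duplicate positions and had 6875, 23058 and 82454 autosomal peaks. The input kept 14669253 tags and had 282. The authors called peaks in each library on its own, with no input as control. The deposited pileup is the fragment coverage at a summit, and the fold is that pileup over the background of the same library, both being the authors' own values. With 1 input library, no difference from the input has a replicate check.

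Most desert sites, like most other shared regions, joined replicates 2 and 3. Of the 1164 sites, 1083 had a peak in replicate 2, 1048 in replicate 3 and 494 in replicate 1. Peaks of replicates 2 and 3 alone made up 670 sites, or 57.6%, those of replicates 1 and 2 alone 116, or 9.97%, and those of replicates 1 and 3 alone 81, or 6.96%. In the other shared regions these shares were 53.5%, 11.2% and 6.18%. All 3 libraries met at 297 desert sites, or 25.5% (exact 95% interval 23.0 to 28.1), against 29.2% of the other shared regions (28.3 to 30.1) and 28.8% of all shared regions. Without replicate 3 there were 411 desert sites, without replicate 2 there were 373 and without replicate 1 there were 963.

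The share of peaks that recurred was near that elsewhere for replicates 1 and 2 and lower in deserts for the library labelled replicate 3. In deserts 1164 of 12957 merged regions were shared, or 8.98%, against 9807 of 84499 outside, or 11.6%. Of the desert peaks of replicate 1, 74.0% lay in a shared region, against 76.0% of its peaks in intergenic stretches within 500 kb of a coding gene. In replicate 2 the shares were 45.3% in deserts and 46.1% in those stretches. In replicate 3 they were 9.37% in deserts (8.84 to 9.92) and 12.6% in those stretches (12.3 to 12.9). These are shares of peaks, which are not replicates, and no test was made of them.

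Per length, at the authors' peak threshold, deserts held about as many shared regions as other intergenic DNA. There were 248 deserts, where each chromosome was counted between its outermost peaks. They covered 202.1 Mb, or 8.41% of the autosomal span. Shared regions lay at 5.76 per Mb in deserts, 5.64 per Mb in intergenic stretches within 500 kb of a coding gene and 2.98 per Mb inside coding genes. Deserts thus had 1.29 times the density of the whole rest of the autosomes (95% interval 1.22 to 1.37), but 1.02 times that of the nearer intergenic stretches (0.958 to 1.09). With stricter peaks deserts fell below those stretches, at a ratio of 0.876 (0.786 to 0.973) for −log10 q of at least 5 and 0.769 (0.651 to 0.903) for fold of at least 5. Regions of all 3 libraries lay at 1.47 per Mb in deserts and 1.60 per Mb in the nearer intergenic stretches, a ratio of 0.921 (0.812 to 1.04), and the ratio to the whole rest was 1.13 (0.9997 to 1.27).

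By distance, with all 3 libraries, the density of shared regions climbed near genes and then stayed level into the deserts. It was 2.98 per Mb inside coding genes, 4.13 within 10 kb of one and 6.08 from 10 to 50 kb. From there it was 6.01 to 100 kb, 6.09 to 250 kb, 5.77 to 500 kb, 5.75 to 1000 kb and 5.79 beyond 1000 kb, with intervals that overlap. Without replicate 3 these densities were 1.31 inside coding genes, 1.76 within 10 kb, 2.32 from 10 to 50 kb, 2.24 to 100 kb and 2.401 to 250 kb. They were then 1.997 to 500 kb, 2.04 to 1000 kb and 2.02 beyond 1000 kb.

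**Figure D1:**
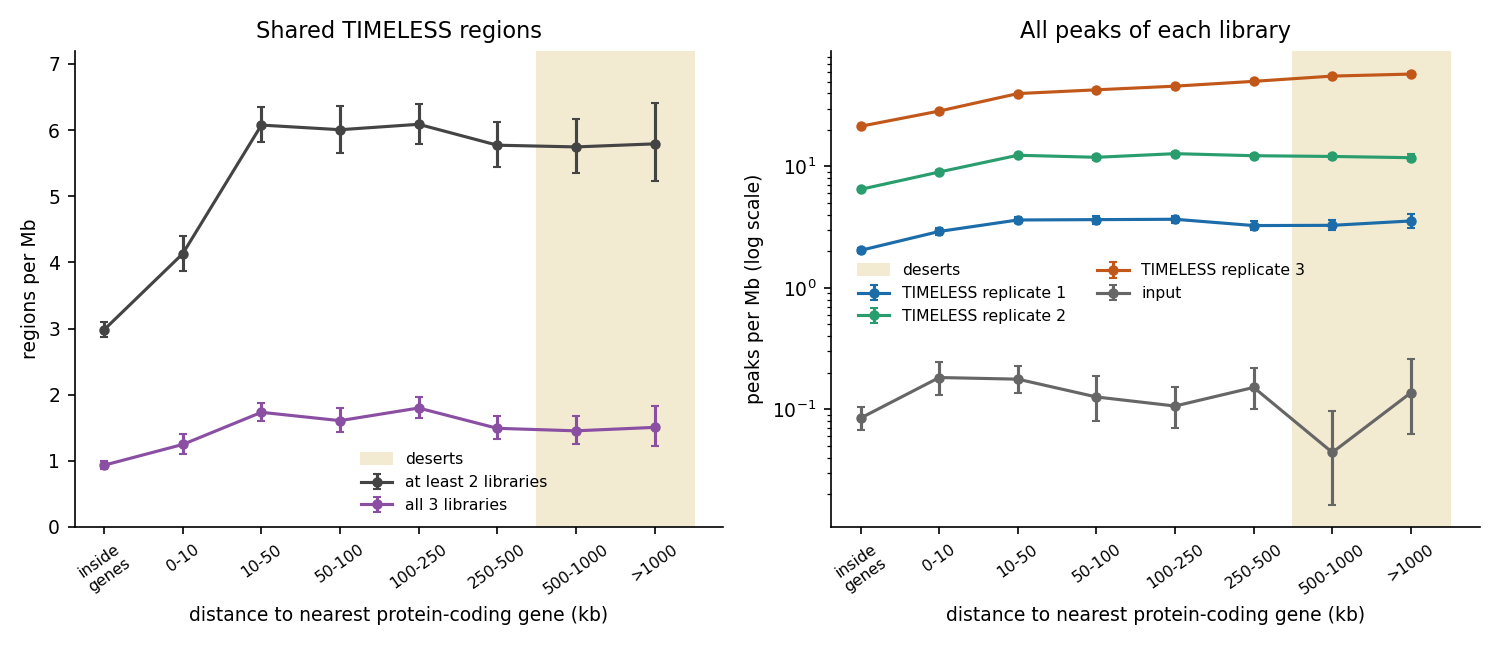
Density per Mb by distance to the nearest protein-coding gene in kb, with exact 95% Poisson intervals. Left, shared regions of at least 2 libraries and of all 3 libraries; right, on a log scale, all peaks of each TIMELESS library and of the input. The shaded classes are the deserts, where shared regions stand at 5.75 and 5.79 per Mb while peaks of the library labelled TIMELESS replicate 3 go on to 57.7 per Mb.

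The 3 libraries did not share one course over distance. Taking all peaks, shared or not, replicate 1 had 3.67 peaks per Mb from 100 to 250 kb, 3.27 from 500 to 1000 kb and 3.56 beyond 1000 kb. Replicate 2 had 12.8, 12.1 and 11.8 in the same classes, so both were level. Replicate 3 had 21.4 inside coding genes, 45.9 from 100 to 250 kb, 50.3 from 250 to 500 kb, 55.5 from 500 to 1000 kb and 57.7 beyond 1000 kb, higher in each class than in the one before. The input had 0.0440 peaks per Mb from 500 to 1000 kb and 0.137 beyond 1000 kb, on 15 desert peaks in all.

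At the authors' threshold every TIMELESS library had more peaks per Mb in deserts than in the rest, and the input had fewer. The values in deserts and in the rest were 3.37 and 2.82 per Mb in replicate 1, 12 and 9.38 in replicate 2, and 56.2 and 32.3 in replicate 3. In the input they were 0.0742 and 0.121. Replicate 1 thus had a ratio of 1.196, replicate 2 of 1.28 and replicate 3 of 1.74. They averaged 1.41 ± 0.294 (SD, n = 3), against 0.612 in the single input library. On the log2 scale the mean ratio was 0.47 ± 0.29, higher in 3 of 3 libraries, with a two-sided exact sign-flip permutation p = 0.25, the smallest that 3 libraries can give. With peaks of −log10 q at least 5, replicate 1 turned direction, with 1.16 per Mb in deserts and 1.18 in the rest, a ratio of 0.980. Replicates 2 and 3 then had ratios of 1.08 and 1.64, and the input had 0.605.

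Against intergenic stretches within 500 kb the libraries split. The ratio was 0.978 in replicate 1, 1.02 in replicate 2 and 1.37 in replicate 3. They averaged 1.12 ± 0.214 (SD, n = 3), with exact sign-flip permutation p = 0.5, and the input had 0.492. With peaks of fold at least 5, the ratio to the rest was 1.03, 0.953 and 1.32 in replicates 1, 2 and 3. In the input it was then 0.9255, on 13 desert peaks, near the values of replicates 1 and 2. For shared regions the ratio to the rest was 0.881 (0.749 to 1.03) at that limit, which turns the direction. At the authors' threshold without replicate 3 it was 1.141 (1.03 to 1.26).

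On each of the 19 autosomes, deserts had a higher density of shared regions than the rest of that chromosome. Against intergenic stretches within 500 kb they were higher on 10 of the 19. Without replicate 3 deserts were higher than the rest on 10 of the 19 autosomes, and higher than those stretches on 8. The ratio to the rest ran up to 1.91 on chromosome 15 and was lowest on chromosome 14, at 1.00. Chromosome 13 had 8.73 sites per Mb in its deserts, the highest value of any autosome, and chromosome 12 had 4.85, the lowest.

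Sites were spread over nearly all deserts of any length. A site was found in 200 of the 248 deserts, and 138 held a site of all 3 libraries. Deserts with a site had a median length of 703.7 kb, against 89.2 kb in the 48 without one, of which none was longer than 469.8 kb. All 73 deserts of at least 1000 kb held a site. They had 784 sites, or 67.4% of the total, on 68.7% of desert length. Over the 248 deserts, which share libraries and depth, Spearman's rho of length and number of sites was 0.882, as a description, and 0.753 without replicate 3.

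Long deserts spanned a range of densities, and whether it goes beyond counting error was not tested. Among the 73, it ran from 1.64 sites per Mb, in the desert on chromosome 11 from the teneurin gene Tenm2 to Mat2b, to 12.3 per Mb, on the same chromosome from Cobl, which encodes an actin nucleator, to Pom121l12. The median was 5.496 per Mb, with an SD of 2.02 over deserts. These 2 deserts were chosen after their values were seen, and they held 4 and 14 sites. Peak density in the same deserts ran from 0.607 to 7.51 per Mb in replicate 1, from 6.07 to 17.97 in replicate 2 and from 29.7 to 72.4 in replicate 3. Its order agreed little between libraries, with Spearman's rho of 0.372 for replicates 1 and 2, 0.136 for 1 and 3 and 0.251 for 2 and 3, over 73 deserts.

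**Figure D2:**
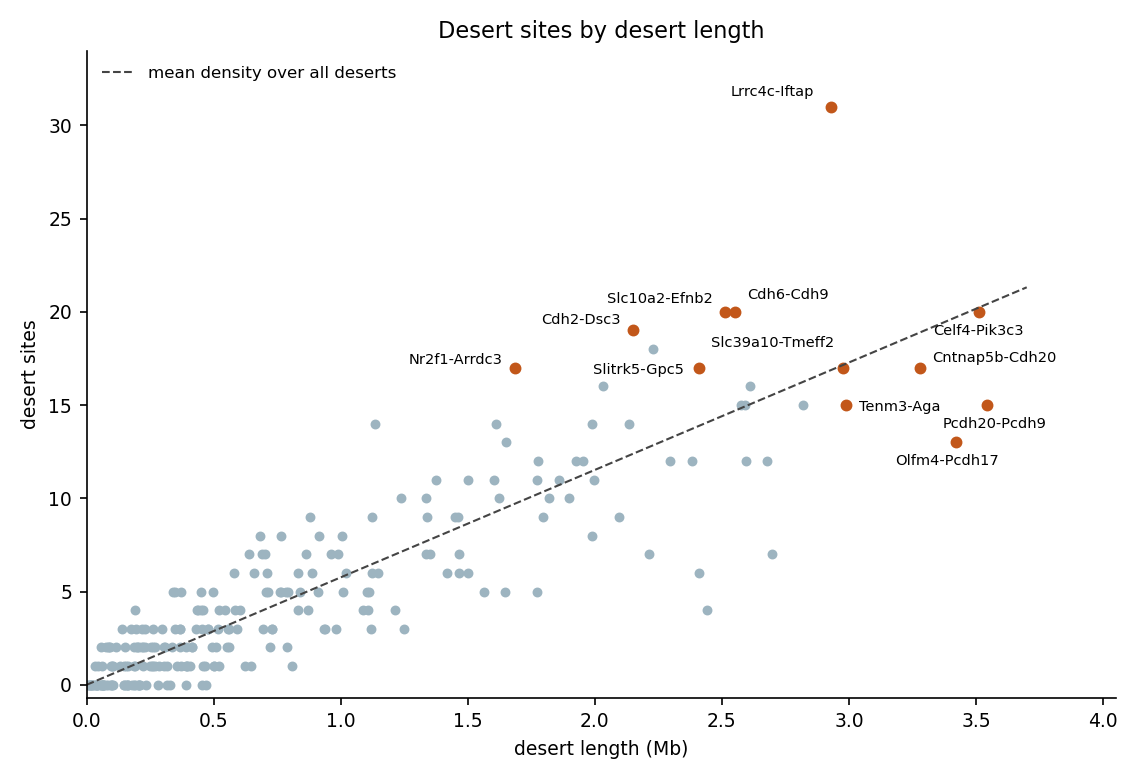
Number of desert sites against desert length in Mb, 1 point per desert (248 deserts); the deserts named in the text for their number of sites or length are in orange with their flanking genes, and the dashed line is the mean density over all deserts. Counts go up with length, Lrrc4c to Iftap stands above the line with 31 sites, and the longest desert, with 15, lies under it.

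The desert with most sites lies between Lrrc4c and Iftap on chromosome 2 (98131673 to 101060778, 2.93 Mb). Lrrc4c encodes netrin-G ligand 1, a postsynaptic adhesion protein, and Iftap encodes a protein associated with intraflagellar transport. This desert held 31 sites, or 10.6 per Mb against 5.76 per Mb over all deserts, and 10 of them had peaks of all 3 libraries. In all it had 22, 50 and 212 peaks in replicates 1, 2 and 3 and 3 input peaks. On the other side of Lrrc4c, the desert towards Api5 held 9 sites at 10.2 per Mb, which puts 40 sites beside this gene. The Lrrc4c to Iftap count was 26 without replicate 1, 12 without replicate 2 and 13 without replicate 3, and it was 12 at −log10 q of at least 5 and 5 at fold of at least 5.

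The sites of that desert differed in strength and in which library was strongest. At 98387422 to 98388288, 756.2 kb from Lrrc4c, pileup was 17, 29 and 58 in replicates 1, 2 and 3 and fold was 6.42, 6.79 and 5.58. At 99907680 to 99908401 pileup was 23, 29 and 84 and fold was 7.36, 5.67 and 6.88. At both sites all 3 folds were above 5. At 100103218 to 100103858, in contrast, replicate 1 had no peak, replicate 2 had fold 5.13 and replicate 3 had 13.4, the widest gap of the 31 sites.

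One member of this desert lies beside input peaks. The site at 98663672 to 98664086 had the highest pileup of all 1164 members, with 333 in replicate 2 and 441 in replicate 3 and no peak in replicate 1, while its folds were 3.44 and 4.14. The nearest input peaks were 737 and 873 bp away, with pileups of 365 and 304. Shared regions over those 2 input peaks and over another nearby, of pileup 435, were left out by the rule. Of all 1164 members, 3 lay within 10 kb of an input peak.

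**Figure D3:**
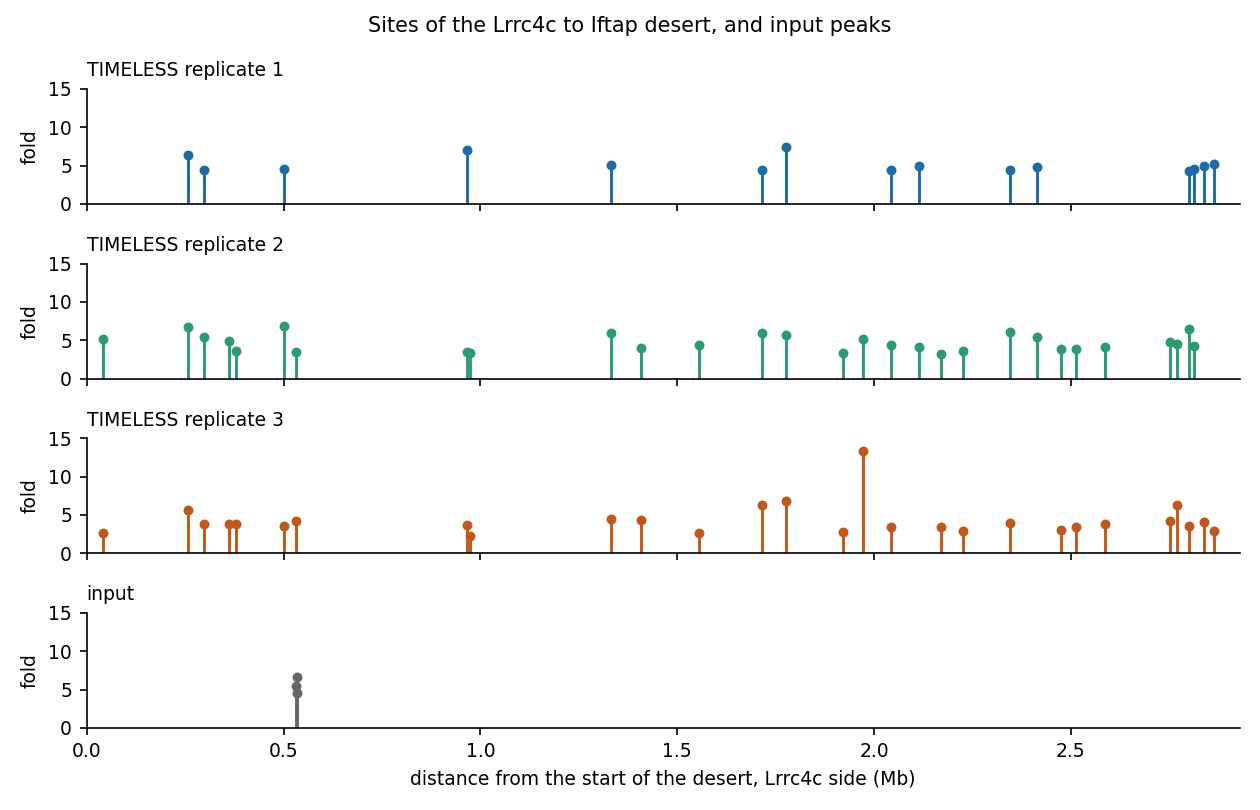
Fold enrichment of each library at the 31 desert sites between Lrrc4c and Iftap, and of the 3 input peaks, by distance in Mb from the Lrrc4c end of the desert; 1 stem per peak, and a missing stem means that the library had no peak. TIMELESS sites run the length of the desert, and the input peaks sit together near 0.5 Mb.

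Cadherins and other adhesion genes flanked several of the deserts with most sites. Between Cdh6 and Cdh9 on chromosome 15 (13676408 to 16228549), both of which encode classical cadherins, there were 20 sites, 3 of them of all 3 libraries. Between Cdh2, which encodes N-cadherin, and Dsc3, which encodes a desmosomal cadherin, on chromosome 18 (17309247 to 19460929), there were 19 sites and 7 of all 3. Between Slitrk5, a synaptic adhesion gene, and the glypican gene Gpc5 on chromosome 14 (112183145 to 114592200), there were 17 and 8 of all 3. Between Cntnap5b, of the contactin-associated proteins, and Cdh20 on chromosome 1 (100990600 to 104268339), there were 17 and 6 of all 3. In this order these deserts held 7.84, 8.83, 7.06 and 5.19 sites per Mb, against 5.76 over all deserts.

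Other deserts with many sites had flanks of other kinds. Slc10a2, the ileal bile acid transporter, and Efnb2, which encodes the Eph receptor ligand ephrin-B2, bound a desert on chromosome 8 (5605288 to 8117234) with 20 sites, 4 of all 3 libraries. Celf4, a neuronal RNA-binding protein, and Pik3c3, a phosphoinositide kinase of endosomes and autophagy, bound one on chromosome 18 (26254521 to 29765614) with 20 sites and 3 of all 3. Nr2f1, an orphan nuclear receptor of cortical development, and Arrdc3 bound one on chromosome 13 (78698874 to 80383383) with 17 sites and 4 of all 3, at 10.1 per Mb. The zinc transporter gene Slc39a10 and Tmeff2 bound one on chromosome 1 (47425777 to 50400682) with 17 sites and 3 of all 3. The deserts beside Slc10a2, Celf4 and Slc39a10 held 7.96, 5.70 and 5.71 sites per Mb.

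The longest deserts were not the densest. The longest, between the protocadherin genes Pcdh20 and Pcdh9 on chromosome 14, was 3.54 Mb with 15 sites, or 4.24 per Mb, and 10, 35 and 173 peaks in replicates 1, 2 and 3. Olfm4 to Pcdh17 on the same chromosome had 13 sites at 3.80 per Mb, and Tenm3 to Aga on chromosome 8 had 15 at 5.02 per Mb. The 10 deserts with most sites held 16.8% of the sites on 12.98% of desert length. In each of the 13 deserts taken by number of sites or by length, the count fell by more than 1.5 times without replicate 2 and without replicate 3. The 13 counts were then between 3 and 12 without replicate 2 and between 4 and 13 without replicate 3, and without replicate 1 that of Celf4 to Pik3c3 was 11.

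In 3 deserts the stretch free of ordinary coding genes is an antigen receptor locus, where lymphocytes rearrange V segments. These deserts covered 4.42 Mb and held 27 sites. Without these 3 deserts, an alternative chosen after seeing the data, 1137 sites remained, and the density ratio to the rest was 1.29.

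Large shares of the cell adhesion genes flanked a desert, which describes the genome and not the peaks. Of 47 cadherin and protocadherin genes 20 flanked a desert, or 42.6%, and of 108 genes of synaptic adhesion and axon guidance 40 did, or 37.0%. The share was 16.8% among 214 developmental transcription factor genes, 15.7% among 70 neurotransmitter receptor genes, 3.60% among 139 channel genes, 0.0676% among 1480 chemosensory receptor genes and 2.21% among all 20661 autosomal coding genes.

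Per length, deserts beside these genes held sites at rates close to the 5.76 per Mb of all deserts. There were 203 sites at 5.48 per Mb beside the cadherins, 353 at 5.97 beside synaptic adhesion and guidance genes, 94 at 5.19 beside developmental transcription factors, 35 at 6.37 beside receptors and 31 at 5.11 beside channels. Deserts between genes of 2 lists count in both, and no test was made. Without replicate 3 the densities were 1.97 beside cadherins, 2.097 beside synaptic adhesion and guidance genes, 2.04 beside developmental transcription factors, 1.82 beside receptors and 1.32 beside channels, against 2.03 in all deserts. The only chemosensory gene, Olfr161, flanked a desert of 0.0765 Mb with 2 sites.

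Among single flanking genes Lrrc4c had most sites beside it, with 40. In the cadherin list Cdh9 had 27 in its 2 deserts, and the protocadherin genes Pcdh7 and Pcdh9 had 24 and 22. Cdh8 had 21. In the synaptic list Adgrl3, a latrophilin that binds teneurins, had 21, Efnb2 had 20 and Cntnap5a had 18. Without replicate 3, Lrrc4c had 15 sites beside it, Pcdh7 had 12, Cdh9 had 11 and Adgrl3 had 3, so their order changed.

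Transcription factor, channel and receptor genes had fewer by count, but not always per length. Beside the genes named here sites ran from 2.60 per Mb for Zeb2 to 14.4 for Htr1a. Beside those of the cadherin list above they ran from 4.55 for Pcdh7 to 7.68 for Cdh9. Nr2f1 had 17 sites beside it, Gata3, a factor of T cell and sensory development, had 9, and Zeb2, a repressor of neural crest and cortical development, had 7 in a desert of 2.70 Mb. The potassium channel genes Kcna4 and Kcnt2 had 8 each, Kcnd2 had 7 and Kcnv1 had 6. The kainate receptor gene Grik2 had 12, and the NMDA receptor gene Grin3a, the metabotropic receptor gene Grm7 and the serotonin receptor gene Htr1a had 5 each. Without replicate 3 each of these genes had 1 to 4 sites beside it.

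The strongest desert site by the smallest of its 3 folds lay on chromosome 4 at 79555863 to 79556612, between Ptprd, a presynaptic receptor phosphatase gene 1344 kb away, and Tyrp1, a melanin synthesis gene 1278 kb away. Its pileup was 55, 80 and 173 and its fold 10.4, 11.3 and 10.2 in replicates 1, 2 and 3, averaging 10.6 ± 0.601 (SD, n = 3). The 3 summits lay within 26 bp of each other. Per 1000000 tags kept, its pileup was 6.53, 5.89 and 5.68.

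The next sites had 3 folds of like size too, which a ranking by the smallest fold favours. Between Slitrk5 and Gpc5 (chromosome 14, 113798318 to 113798810), fold was 9.67, 9.97 and 9.43 in replicates 1, 2 and 3, with summits within 16 bp. Between the predicted gene Gm40892 and Flrt2, which encodes an adhesion and guidance protein (chromosome 12, 94852543 to 94853353), it was 9.29, 10.7 and 10.99. Between Serpinb8, a protease inhibitor gene, and Cdh7 (chromosome 1, 108325922 to 108326467), it was 9.23, 10.5 and 9.36. In these 3 sites the mean was 9.69 ± 0.271, 10.3 ± 0.901 and 9.70 ± 0.709 (SD, n = 3).

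In the lower ranks replicate 3 was mostly the weakest. Between the sorting receptor genes Sorcs3 and Sorcs1 (chromosome 19, 49445800 to 49446265), fold was 10.1, 11.2 and 8.79. Between Eno1b and Dtwd2 (chromosome 18, 48816980 to 48818347) it was 9.45, 9.19 and 7.76. Between Tox, a factor of T cell development, and Car8 (chromosome 4, 7622677 to 7623518) it was 10.3, 12.1 and 7.59, the widest spread of the 10, and this site lay over the lncRNA gene Gm33752.

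The last 3 were between Got2, a mitochondrial aminotransferase gene, and Cdh8 (chromosome 8, 97214983 to 97215558) with 8.13, 8.59 and 7.52, between Plpp3 and Usp24 (chromosome 4, 105787719 to 105788397) with 10.1, 10.3 and 7.45, and between Fat3, an atypical cadherin gene, and Chordc1 (chromosome 9, 17407112 to 17407547) with 7.24, 8.79 and 7.76. Ranking stopped at a smallest fold of 7.24, and the next site had 7.15. The fold limit of 5 could not remove any of these 10 sites, because the ranking had already chosen folds of 7.24 and above. Each site also had a peak in every library under the stricter q limit and when peaks had to meet by 100 bp. The sites were picked for strong peaks, so passing the q limit says little.

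**Figure D4:**
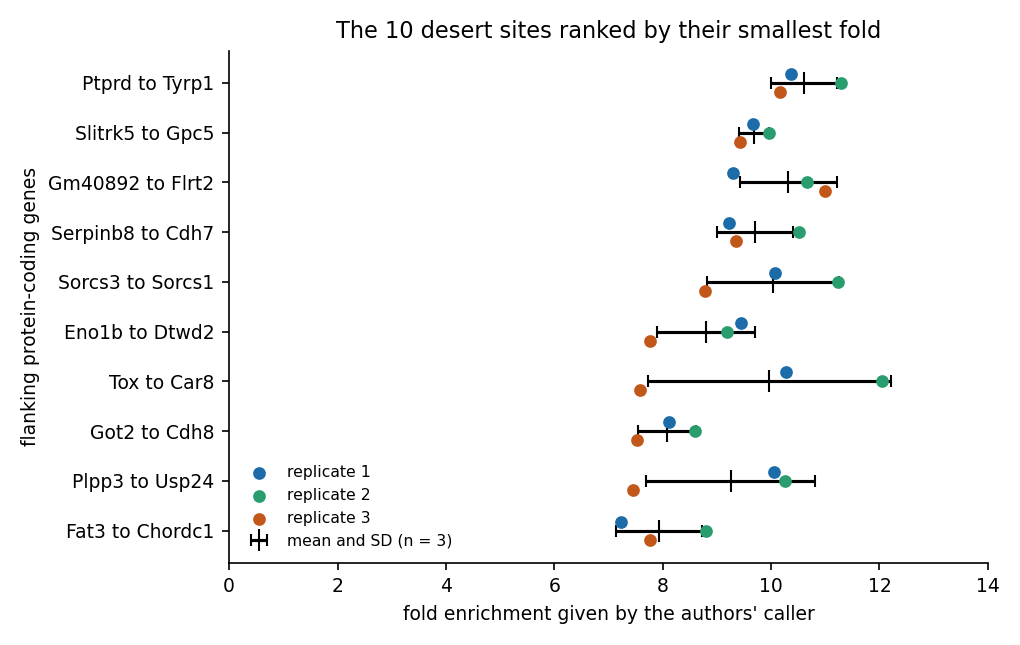
Fold enrichment, as the authors' caller gave it, of TIMELESS replicates 1, 2 and 3 at the 10 desert sites with the largest smallest fold, labelled by flanking genes; bars are mean and SD of the 3 libraries. Folds run from 7.24 to 12.1, and replicate 3 is the lowest at 7 of the 10 sites.

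Sites with a high fold in all libraries made up a smaller share in deserts than elsewhere, which is given as a description over sites. Fold was at least 5 in each of the 3 libraries at 52 of the 297 desert sites of all 3, or 17.5%, against 768 of 2862 other regions of all 3, or 26.8%. The largest smallest fold was 10.2 in deserts, 20.3 in intergenic stretches within 500 kb and 20.6 in coding genes. The 6 desert regions left out because they met an input peak included stronger ones. Folds were 22.7, 21.05 and 23.3 on chromosome 12 at 93576849 to 93577368. They were 19.9, 20.2 and 21.1 on the same chromosome at 97061326 to 97061818.

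Pileup at the 297 sites of all 3 libraries differed less between libraries than depth did. The median was 15, 20 and 36 in replicates 1, 2 and 3, or 1.78, 1.47 and 1.18 per 1000000 tags kept. The median ratio of pileups within a site was 1.36 for replicate 2 over 1, where the tags kept had a ratio of 1.61. It was 2.46 for replicate 3 over 1, against 3.61 for tags, and 1.83 for replicate 3 over 2, against 2.24. Median fold was 4.997, 4.95 and 3.58 in replicates 1, 2 and 3. These sites were chosen for a called peak in each library, also in the shallowest, so the medians and ratios are not free of that choice.

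Sites with a high pileup in one library tended to have one in the others, most of all between replicates 2 and 3. Spearman's rho of pileup over the 297 sites was 0.524 for replicates 1 and 2, 0.488 for 1 and 3 and 0.709 for 2 and 3. In 1945 regions of all 3 libraries in intergenic stretches within 500 kb it was 0.635, 0.512 and 0.650. In 917 regions inside coding genes it was 0.681, 0.585 and 0.644. Of fold, it was 0.386, 0.476 and 0.630 at desert sites and 0.625, 0.598 and 0.674 in the nearer intergenic stretches. Sites share depth and base composition within a library, so these values are descriptions with no p.

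**Figure D5:**
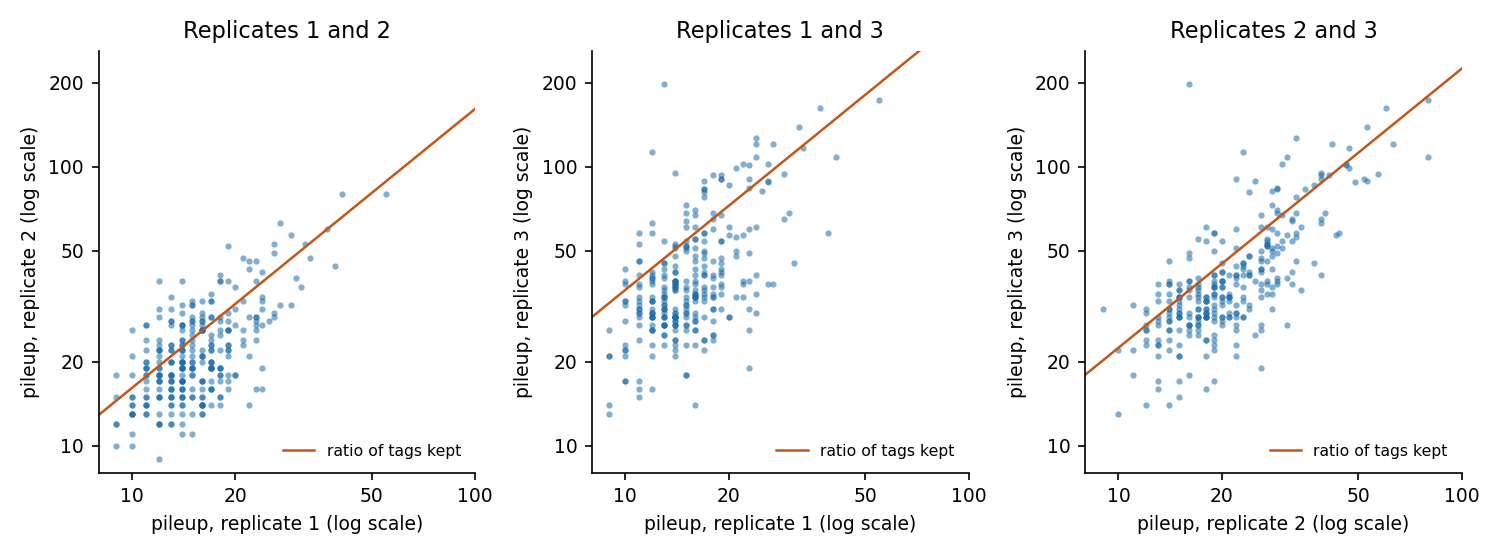
Pileup of the 297 desert sites of all 3 libraries, for each pair of replicates on log axes, 1 point per site; the line is the ratio of the tags kept. Points lie mostly under the line, with medians of 15, 20 and 36 in replicates 1, 2 and 3, and are tightest for replicates 2 and 3.

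The sites at the top overlapped in part. Of the 297 sites, the 74 of highest pileup were taken in each library. Replicates 1 and 2 had 40 in common, 1 and 3 had 38 and 2 and 3 had 54, and 32 were in the top 74 of all 3. The overlap that unrelated rankings would give was not computed, and no such count was made outside deserts. Summits of 2 libraries in a site lay a median of 94 bp apart for replicates 1 and 2, 87 bp for 1 and 3 and 91 bp for 2 and 3. The share within 100 bp was 52.5%, 57.7% and 52.5%, against 56.2%, 57.3% and 57.5% in the nearer intergenic stretches.

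The fold of a peak depends on which background the caller used. Within each library many peaks had one common ratio of fold to pileup plus 1, which was the highest such ratio. In deserts this held for 16.5%, 21.4% and 33.9% of the peaks of replicates 1, 2 and 3. It held for 22.8%, 31.1% and 34.3% in the nearer intergenic stretches and for 33.6%, 47.7% and 48.3% inside coding genes. Its part in the lower desert folds was not tested.

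Desert sites had nearly the median width of other shared regions and sat at all distances beyond the threshold. Their median width was 573.5 bp (269 to 2328), against 563 bp in the other shared regions. The median distance to the nearest coding gene was 792.4 kb, and 381 sites lay more than 1000 kb from one. The farthest, on chromosome 18 at 28014093 to 28014468 between Celf4 and Pik3c3, was 2251 kb from any, with pileups of 21 and 27 in replicates 2 and 3 and no peak in replicate 1. Neighbouring sites of a desert were a median of 101 kb apart. Another site lay within 10 kb for 150 sites and within 100 kb for 763, and 34 were alone in their desert.

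On both sides of the threshold, most regions joined replicates 2 and 3 alone. The 5 nearest members lay 500.1 to 501.3 kb from a coding gene. One of them, on chromosome 13 at 115601908 to 115602484 beside Itga1, had peaks of all 3 libraries with folds of 6.42, 5.44 and 5.76, and the others had folds of 2.60 to 4.82 in replicates 2 and 3. The 5 shared regions just outside lay 499.3 to 499.8 kb away, all with peaks of replicates 2 and 3 alone, and had folds of 2.84 to 7.43.

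Deserts are not empty of annotation, and most sites lay outside it. The table places 1203 entries other than protein-coding genes in the deserts, among them 459 pseudogenes, 275 lncRNA genes and 209 V segments. Of the 1164 sites 1065, or 91.5%, lay over no entry, 73, or 6.27%, lay over a non-coding gene or pseudogene, with the entries of the antigen receptor loci themselves not counted, and 63 of all sites lay over a lncRNA gene. The lncRNA gene Gm32647 on chromosome 7 (94042496 to 95326426), 1284 kb long, held 9 sites, none with peaks of all 3 libraries. None of 230 RefSeq promoters in deserts met a site, the nearest being that of Gm31401 at 1483 bp, and the nearest of 19 miRNA hairpins, Mir8099-2, was 5183 bp away. The share of desert length under these entries is not given, so the counts do not show whether sites avoid them. The table has no exons or strand, so exonic and intronic positions were not analysed here.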

How the data were processed

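Peak lists of 3 TIMELESS ChIP libraries and 1 input library were used. Reads were placed on mm10, and MACS2 2.1.1, deepTools 2.0, Bowtie2 2.4 and SAMtools 1.14 are named, per the submitters' processing notes. Per the file headers, MACS 2.1.2 called each library alone, without a control, at q 0.05, keeping 1 tag per position and reading background over 10 kb. The deposited pileup is a signal (fragment coverage) at raw depth. The deposited fold enrichment is a ratio of pileup to the background of the same library. The deposited p-values and q-values are −log10 values, per the file headers.

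Peaks on chromosomes 1 to 19 were merged at 1 bp overlap. In a region a library took its highest pileup, its highest fold and the summit of its peak of highest pileup. With several peaks of a library in a region, pileup and fold can come from different peaks. Distances were taken from region midpoints, or from summits for single libraries, to the 20661 autosomal protein-coding genes of a RefSeq table (GRCm38.p6). Shares have exact binomial and densities exact Poisson 95% intervals, which cover counting error only. A deeper library calls weaker peaks. The replicate is the library, so ratios of density were tested by sign flips over 3 libraries. Members, gene lists and tests were chosen with earlier results of these data known. Named were the 10 sites of all 3 libraries with the largest smallest fold, 5 sites on each side of 500 kb, the farthest site, the 10 deserts with most sites, the 5 longest, and up to 4 flanking genes a list. The scripts were tested on simulated data. One desert and 1 flanking gene that this rule takes are not reported here. No sequence is printed because no promoter or miRNA of the tables met a site. Python 3.11.15, pandas 2.3.3 and scipy 1.17.1 were used.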

Additional observations from a re-analysis of the deposited data

Results flagged for a closer look

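Chromosome X lies outside the autosomes that defined the desert sites, and the same rule applied to it found 63 desert sites among 730 shared regions, 15 of them with peaks of all 3 TIMELESS libraries. The result drew attention as a signal in data outside the main measurement, with 37, 81 and 405 TIMELESS peaks in those deserts in replicates 1, 2 and 3 and 0 of the 7 input peaks of the chromosome. The 22 deserts covered 12.94 Mb and held 4.87 shared regions per Mb, against 4.31 per Mb in the rest of chromosome X. No interval, no density of nearer intergenic stretches and no density without replicate 3 is given for this chromosome. With only 7 input peaks on it, their absence from its deserts says little.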

How the results depend on the processing

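The density of shared regions in deserts over the rest stayed above 1 except at fold of at least 5, where it was 0.881 (0.749 to 1.03). It was 1.07 at −log10 q of at least 5, with an interval that includes 1 (0.959 to 1.18). With distances to every gene of the table it was 1.13, on 12 sites and with no interval given. With 1 replicate left out it was 1.141 to 1.30. The ratio to intergenic stretches within 500 kb, tried after seeing the data, was 0.876 (0.786 to 0.973) and 0.769 (0.651 to 0.903) at the q and fold limits and 0.940 to 1.02 with 1 replicate left out. The number of sites was 373 to 963 with 1 replicate left out, 399 and 169 at the q and fold limits, 2271 beyond 250 kb, 381 beyond 1000 kb and 12 with distances to every gene. Their percent of shared regions was 9.48 to 10.6 with 1 replicate left out, 8.91 and 7.48 at the q and fold limits, 20.7 beyond 250 kb, 3.47 beyond 1000 kb, 0.109 with every gene and 11.9 without predicted genes. Deserts with a site numbered 104 at the fold limit, 435 at 250 kb, 63 at 1000 kb and 8 with every gene, and 149 to 191 with 1 replicate left out. At the fold limit 30.8% of sites had peaks of all 3 libraries, a share that cannot be given with 1 replicate left out, and the mean density ratio over libraries was 1.10 (1.24 to 1.51 with 1 replicate left out). Fewer peaks or other bounds enter each of these settings by construction.

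In all, 51 values of the main results under these settings, some of them given above, kept their direction and moved by less than counting error, 1 SD or 1.5 times. Another 29 moved by more, among them ratios to the nearer intergenic stretches that fell below 1. The density ratio to the rest reversed in 1 setting, at fold of at least 5. Values by distance, chromosome and flanking gene without replicate 3 were added after seeing the data. No paired analysis was possible because the input is 1 library and no replicate number is shared between the groups in a way that pairs samples. With 8425679 to 30454118 tags kept, a peak missing from a shallow library does not show that the site is unbound in it.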
